A study of Homo sapiens with 4 samples.

Results

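The genes described here are 30 members of the NRF2 antioxidant programme and of the pentose phosphate pathway, taken by symbol from a list drawn up with earlier results of these data known. All 30 were found among the 23143 gene symbols of the table, and all 30 passed the filter used for testing, a mean of at least 1 FPKM (fragments relative to transcript length and to all mapped fragments) over the 4 libraries. Polyadenylated RNA had been sequenced from A549, a human lung adenocarcinoma cell line, carrying a system in which doxycycline raises GATA4, a zinc finger protein that binds DNA and directs heart and endoderm development. The 2 DOX libraries came from cells given doxycycline, labelled as overexpressing GATA4. The 2 noDOX libraries came from vehicle-treated cells of the same line, labelled as having a normal GATA4 level. Doxycycline-treated cells without the inducible GATA4 were not analysed here, so an effect of the drug and an effect of GATA4 cannot be told apart, and the labels do not say whether the line is 1 clone.

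NRF2, encoded by NFE2L2, is a basic leucine zipper transcription factor that pairs with small MAF proteins such as MAFG and binds antioxidant response elements near its target genes. In unstressed cells KEAP1 captures it and passes it to a ubiquitin ligase for degradation, and oxidants or electrophiles that modify KEAP1 let it accumulate. A549 cells are known to carry a mutated KEAP1, so that NRF2 is already highly active in them. Its targets make glutathione, run the thioredoxin cycle, supply NADPH, detoxify quinones and carbonyls, handle heme and iron and pump conjugates out of the cell. The pentose phosphate pathway draws sugar from glycolysis to make NADPH and ribose.

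The libraries were first set against their labels. GATA4 was at 75.0 and 48.0 FPKM in DOX libraries 1 and 2, against 12.2 and 14.5 FPKM in noDOX libraries 1 and 2, so it was higher in both DOX libraries, as labelled, with a log2 difference of 2.09 (SE 0.30; limma, adjusted p = 0.289). All 6 epithelial keratin and junction markers reached 1 FPKM in at least 1 library, whereas 0 of 5 alveolar surfactant and lineage markers and 0 of 4 endothelial markers did. KRT7 was at 197 and 1360 FPKM in DOX libraries 1 and 2, against 1944 and 1476 FPKM in noDOX libraries 1 and 2. EPCAM was at 3.83 and 3.08 FPKM with doxycycline, against 8.27 and 13.7 FPKM without it. KRT8, KRT18, KRT19 and CDH1 had overlapping libraries. Of 3 genes known to be deleted in this line, CDKN2A and CDKN2B were at 0 FPKM and MTAP was at 1.56 to 2.13 FPKM. Among the blood markers CD14, and among the fibroblast markers COL1A1 and COL3A1, reached 1 FPKM. The summed fibroblast markers were at 2.06 and 2.94 FPKM in the DOX libraries, against 3.92 and 9.63 FPKM in the noDOX libraries. The labels do not give separate cultures for the replicates, so the p-values cover only library-to-library spread, possibly technical. The depth behind the FPKM is unknown.

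Across the members, DOX values were more often the higher ones. In 15 of 30 members both DOX libraries lay above both noDOX libraries, where 14.7% of all 12504 tested genes did, and in 1 member both lay below, where 17.3% of tested genes did. The remaining 14 members had libraries that overlapped. Mean log2(FPKM + 1) was higher with doxycycline in 22 members and lower in 8, with a median difference of 0.39, against a median of -0.04 over all tested genes. No member passed the test over all genes (limma on log2(FPKM + 1), Benjamini-Hochberg adjusted p = 0.520 to 0.999), in which 0.024% of genes were called higher and 0.064% lower. With an unadjusted p under 0.05 there were 6 members, against 6.34% of all tested genes. Since RNA came from whole cultures, a change in every cell and a change in a share of the cells cannot be told apart. An exact permutation test of 2 against 2 libraries cannot go below p = 0.333. The median of the members was 0.58 without noDOX library 1 and 0.16 without noDOX library 2, and 24 members lay higher without noDOX library 1.

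**Figure D1:**
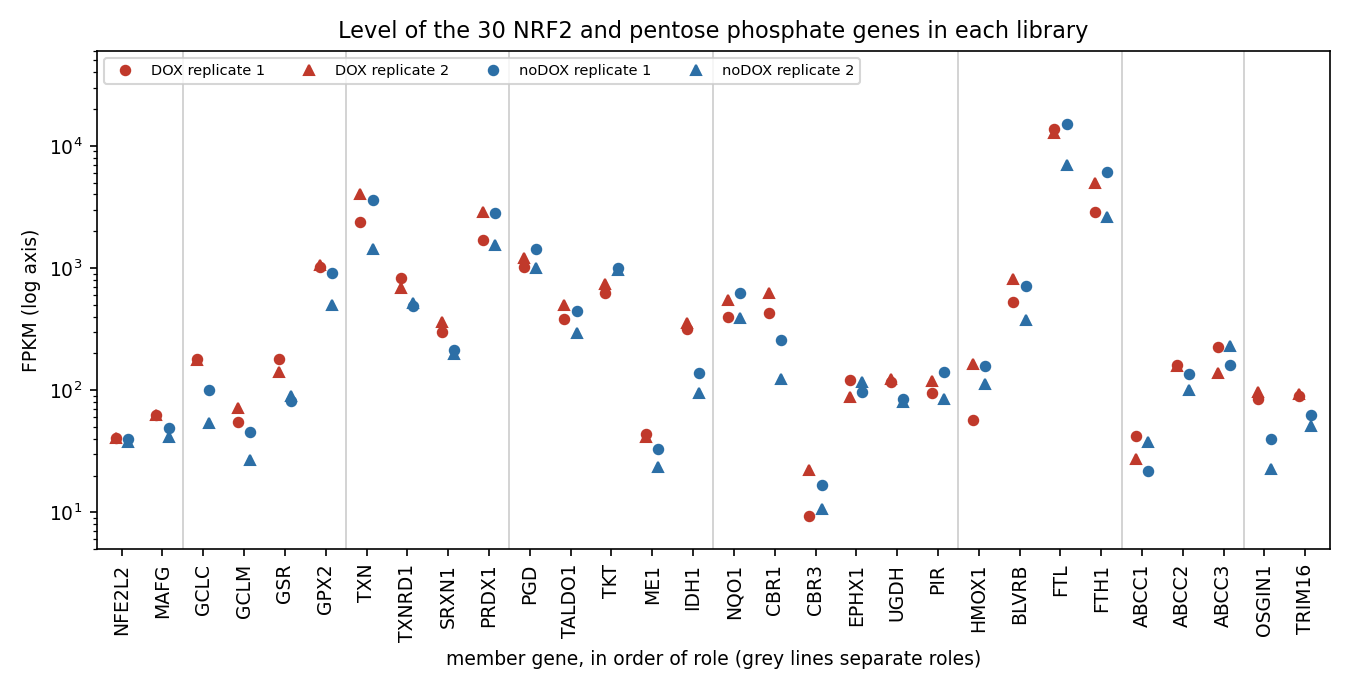
FPKM of the 30 members on a log axis, in order of role, with circles for replicate 1 and triangles for replicate 2 of DOX (red, left) and noDOX (blue, right). The levels span from CBR3, at 9.37 to 22.1 FPKM, to FTL, at 7029 to 15055 FPKM.

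**Figure D2:**
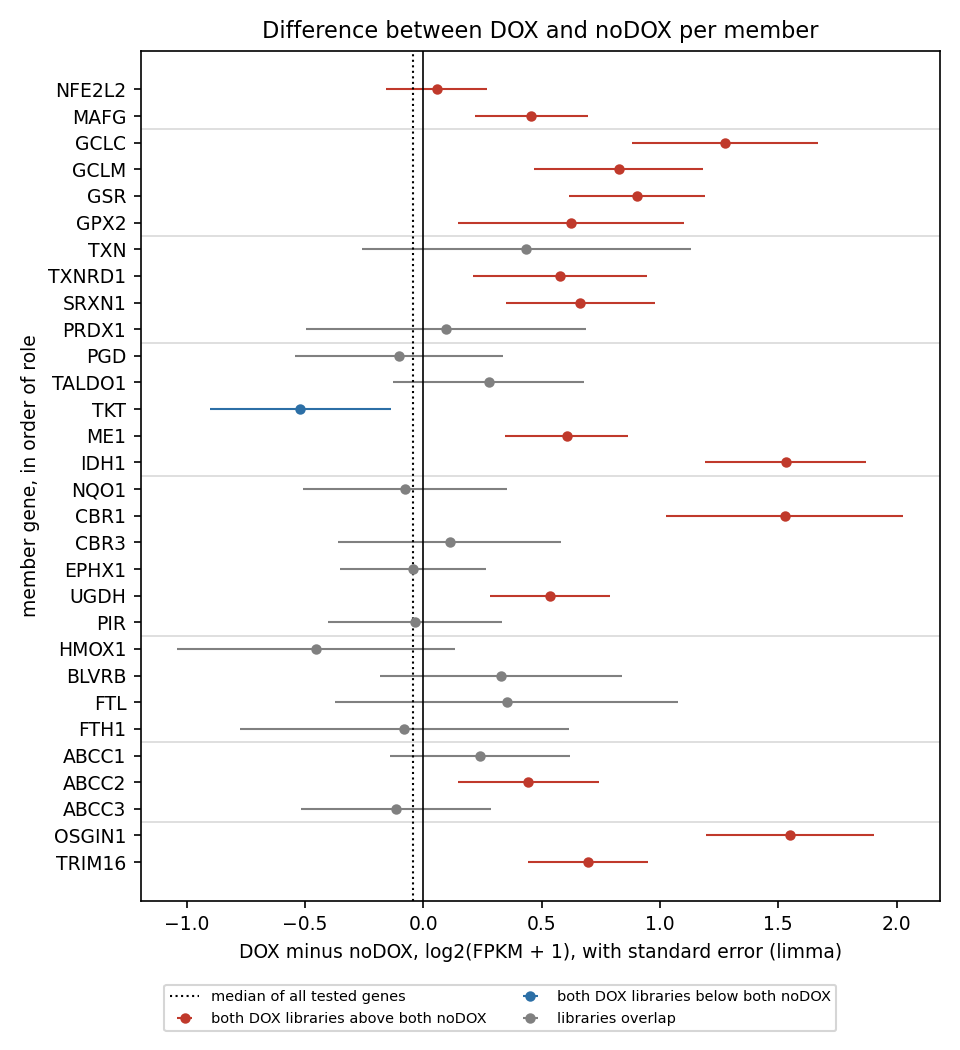
Difference between DOX and noDOX in mean log2(FPKM + 1) for each member, with the standard error from limma and colours for the order of the libraries. The 15 red members have both DOX libraries above both noDOX libraries, and TKT is the 1 member with both below.

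The transcript of the factor itself showed a small difference. NFE2L2 was at 40.8 and 40.3 FPKM in DOX libraries 1 and 2, against 40.2 and 37.7 FPKM in noDOX libraries 1 and 2. The groups did not overlap, but all 4 values lay within a few FPKM of each other, and the log2 difference was 0.06 (SE 0.21; limma, adjusted p = 0.999). Without noDOX library 1 the difference came to 0.10, and without noDOX library 2 to 0.012. MAFG, the small MAF partner, was at 62.9 and 62.2 FPKM in DOX libraries 1 and 2, against 49.5 and 41.5 FPKM in noDOX libraries 1 and 2. Both DOX libraries were higher and close together, 1.38 times the noDOX mean, with a log2 difference of 0.46 (SE 0.24; limma, adjusted p = 0.946). NFE2L2 and MAFG share exon bases with other genes, AGPS and SIRT7 among them, and the sources used here do not say whether counting used strand. So do CBR1, CBR3, EPHX1, FTH1, GCLC, IDH1, NQO1, OSGIN1, PRDX1, SRXN1, TRIM16 and UGDH in the annotation used here, so their values may hold reads of a neighbour.

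All 4 members of glutathione synthesis and use had both DOX libraries above both noDOX libraries, with log2 differences of 0.62 to 1.28. GCLC, the catalytic subunit of the ligase that joins cysteine to glutamate for glutathione, was at 179 and 177 FPKM in DOX libraries 1 and 2, against 99.9 and 53.4 FPKM in noDOX libraries 1 and 2. The DOX libraries agreed closely and the noDOX libraries differed widely from each other, and the log2 difference was 1.28 (SE 0.39; limma, adjusted p = 0.671). GCLM, the modifier subunit of that ligase, was at 54.5 and 72.1 FPKM in DOX libraries 1 and 2, against 45.7 and 26.7 FPKM in noDOX libraries 1 and 2. Its DOX mean was 1.75 times the noDOX mean (log2 difference 0.83, SE 0.36). GSR, the reductase that returns oxidised glutathione to its reduced form with NADPH, was at 181 and 141 FPKM in DOX libraries 1 and 2, against 80.8 and 89.0 FPKM in noDOX libraries 1 and 2. Here the noDOX libraries were close together, and the log2 difference was 0.90 (SE 0.29; limma, adjusted p = 0.691). GPX2, an epithelial glutathione peroxidase, was at 1016 and 1068 FPKM in DOX libraries 1 and 2, against 916 and 498 FPKM in noDOX libraries 1 and 2. NoDOX library 2 stood low, and noDOX library 1 was near the DOX values. Without noDOX library 2 the log2 differences of GCLC, GCLM and GPX2 were 0.83, 0.45 and 0.19, and without noDOX library 1 that of GPX2 was 1.06.

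In the thioredoxin group, both members with a reducing role next to thioredoxin had higher DOX values, and the abundant thioredoxin and peroxiredoxin transcripts overlapped. TXNRD1, the selenoprotein reductase that regenerates thioredoxin, was at 828 and 686 FPKM in DOX libraries 1 and 2, against 489 and 521 FPKM in noDOX libraries 1 and 2. SRXN1, which repairs overoxidised peroxiredoxins, was at 299 and 361 FPKM in DOX libraries 1 and 2, against 214 and 199 FPKM in noDOX libraries 1 and 2. In both genes the replicates were closer to each other than to the other group, and the log2 differences were 0.58 (SE 0.37) and 0.66 (SE 0.32). TXN, thioredoxin, was at 2360.3 and 4011 FPKM in DOX libraries 1 and 2, against 3619.7 and 1429 FPKM in noDOX libraries 1 and 2. PRDX1, a peroxiredoxin that removes hydrogen peroxide, was at 1709.8 and 2885 FPKM in DOX libraries 1 and 2, against 2819 and 1530.2 FPKM in noDOX libraries 1 and 2. Both transcripts were highest in DOX library 2 and noDOX library 1, so the replicates differed more than the groups did.

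The NADPH and pentose phosphate members did not all go one way. IDH1, the cytosolic isocitrate dehydrogenase that makes NADPH, was at 316 and 352 FPKM in DOX libraries 1 and 2, against 138 and 94.9 FPKM in noDOX libraries 1 and 2. Both DOX values stood well above the higher noDOX value, and with a log2 difference of 1.53 (SE 0.34; limma, adjusted p = 0.520) it had the smallest p of the members. ME1, the cytosolic malic enzyme and another NADPH source, was at 43.6 and 41.7 FPKM in DOX libraries 1 and 2, against 32.7 and 23.4 FPKM in noDOX libraries 1 and 2 (log2 difference 0.61, SE 0.26; 0.37 without noDOX library 2). TKT, transketolase of the non-oxidative pentose phosphate branch, was at 625 and 744 FPKM in DOX libraries 1 and 2, against 994 and 961 FPKM in noDOX libraries 1 and 2. It was the 1 member lower in both DOX libraries, at 70.0% of the noDOX mean (log2 difference -0.52, SE 0.38; limma, adjusted p = 0.994). PGD, the NADPH-making phosphogluconate dehydrogenase, was at 1023 and 1209 FPKM in DOX libraries 1 and 2, against 1421 and 1002 FPKM in noDOX libraries 1 and 2. TALDO1, transaldolase, was at 380.2 and 499.5 FPKM in DOX libraries 1 and 2, against 444 and 291 FPKM in noDOX libraries 1 and 2. The libraries of PGD and of TALDO1 overlapped, and their log2 differences were -0.10 (SE 0.44) and 0.28 (SE 0.40).

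Among the enzymes of quinones, carbonyls and xenobiotics, CBR1 and UGDH had higher DOX values and the other 4 overlapped. CBR1, a carbonyl reductase, was at 428 and 621 FPKM in DOX libraries 1 and 2, against 258 and 123 FPKM in noDOX libraries 1 and 2. The log2 difference of CBR1 was 1.53 (SE 0.50; limma, adjusted p = 0.700), with a wide spread inside each group, and was 0.998 without noDOX library 2. CBR3, its close paralogue, was far less abundant, at 9.37 and 22.1 FPKM in DOX libraries 1 and 2, against 16.8 and 10.6 FPKM in noDOX libraries 1 and 2, with overlapping libraries. UGDH, which makes UDP-glucuronic acid for conjugation, was at 116 and 125 FPKM in DOX libraries 1 and 2, against 85.0 and 80.2 FPKM in noDOX libraries 1 and 2 (log2 difference 0.54, SE 0.25). NQO1, the NADPH-dependent quinone reductase often used to read out NRF2 activity, was at 397 and 547 FPKM in DOX libraries 1 and 2, against 619 and 391 FPKM in noDOX libraries 1 and 2. Its replicates differed more than its groups, with a log2 difference of -0.08 (SE 0.43). EPHX1, the microsomal epoxide hydrolase, averaged 104 ± 23.3 FPKM in DOX and 107 ± 14.5 FPKM in noDOX libraries (SD, n = 2 each). PIR, pirin, an iron-binding nuclear protein, averaged 107 ± 18.1 FPKM in DOX and 112 ± 39.0 FPKM in noDOX libraries (SD, n = 2 each). Neither differed beyond the spread between replicates.

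All 4 heme and iron members had overlapping libraries. HMOX1, heme oxygenase 1, was at 56.9 and 163 FPKM in DOX libraries 1 and 2, against 158 and 111 FPKM in noDOX libraries 1 and 2. DOX library 1 stood lowest, and the other 3 libraries lay within a narrower range, and the log2 difference of -0.45 (SE 0.59) was 0.30 without that library. BLVRB, a biliverdin reductase downstream of heme breakdown, averaged 669 ± 204 FPKM in DOX and 546 ± 239.7 FPKM in noDOX libraries (SD, n = 2 each). FTL and FTH1, the light and heavy chains of the iron store ferritin, are abundant transcripts. FTL averaged 13142 ± 654 FPKM in DOX and 11042 ± 5676 FPKM in noDOX libraries (SD, n = 2 each). FTH1 averaged 3939 ± 1475 FPKM in DOX and 4371 ± 2450.3 FPKM in noDOX libraries. FTL had the highest FPKM of all members in every library. The annotation used here holds 16 named FTL pseudogenes, 25 of FTH1 and 7 of TXN, so reads of these 3 genes can be split among near-identical copies.

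Of the export pumps, ABCC2, which carries glutathione and glucuronide conjugates out of the cell, was at 159.9 and 158 FPKM in DOX libraries 1 and 2, against 134 and 101 FPKM in noDOX libraries 1 and 2 (log2 difference 0.44, SE 0.30; 0.24 without noDOX library 2). ABCC1, a related pump, averaged 34.7 ± 10.5 FPKM in DOX and 29.6 ± 11.1 FPKM in noDOX libraries. ABCC3 averaged 183 ± 61.1 FPKM in DOX and 196 ± 49.3 FPKM in noDOX libraries, and the libraries of both overlapped. OSGIN1, an oxidative stress-induced growth inhibitor, was at 84.3 and 96.4 FPKM in DOX libraries 1 and 2, against 40.2 and 22.5 FPKM in noDOX libraries 1 and 2. It had the largest log2 difference of the members, 1.55 (SE 0.36; limma, adjusted p = 0.520), and its groups stood well apart. TRIM16, a ubiquitin ligase of the tripartite motif family, was at 90.2 and 93.7 FPKM in DOX libraries 1 and 2, against 62.3 and 51.0 FPKM in noDOX libraries 1 and 2 (log2 difference 0.70, SE 0.25; limma, adjusted p = 0.773). Its near copy TRIM16L was at 118 and 129 FPKM with doxycycline, against 117 and 96.3 FPKM without it, and reads can be shared between them.

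**Figure D3:**
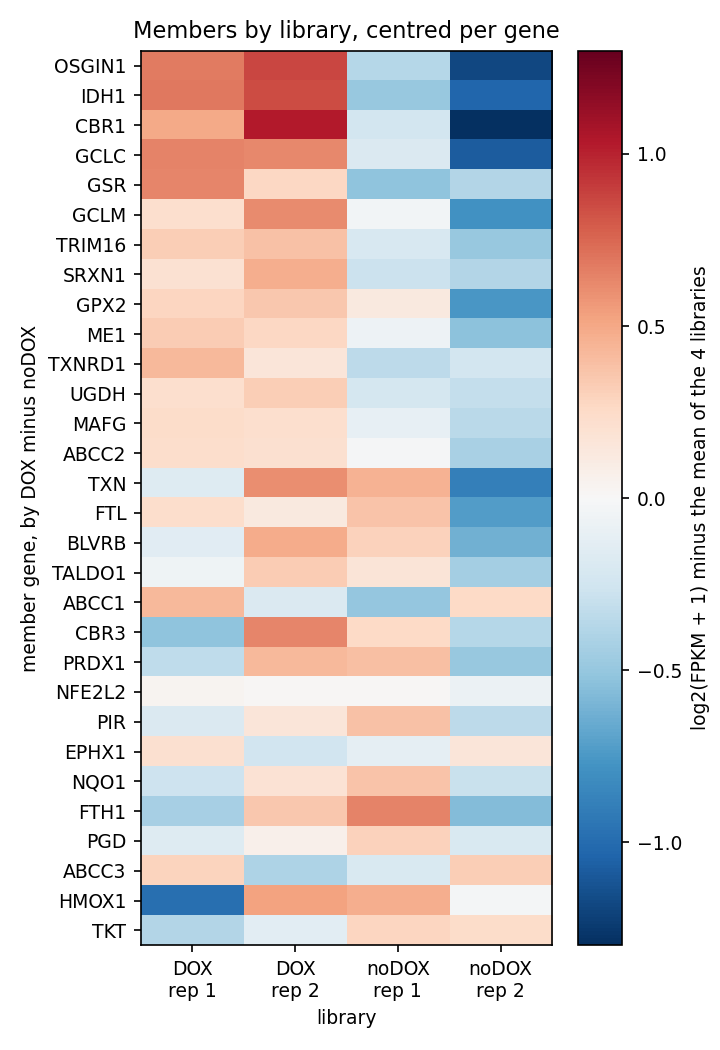
Log2(FPKM + 1) of each member minus its mean over the 4 libraries, with the 2 DOX libraries left of the 2 noDOX libraries and genes ordered by DOX minus noDOX. The upper rows, from OSGIN1 down, are high in both DOX libraries, and in many rows of the middle and lower part DOX library 2 and noDOX library 1 are high together.

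The replicates differed in a way that the groups do not explain. In 11 of the 14 members with overlapping libraries the highest value was in DOX library 2 or noDOX library 1. In the same number the lowest was in DOX library 1 or noDOX library 2. The matching shares over all tested genes with overlapping libraries were not taken, so these counts have no background beside them. Of all 30 members 25 were higher in noDOX library 1 than in noDOX library 2, or 83.3%, against 51.2% of tested genes. In the DOX libraries 19 of 30 were higher in library 2 than in library 1, or 63.3%, against 51.6% of tested genes. Coding genes with transcripts under 1000 bases followed the same order, with median values of 41.2 and 62.6 FPKM in DOX libraries 1 and 2, against 75.3 and 39.8 FPKM in noDOX libraries 1 and 2. For transcripts over 4000 bases the medians were 8.43 and 7.20 FPKM in the DOX libraries, against 6.82 and 8.00 FPKM in the noDOX libraries. The longest annotated transcript of the 15 members with higher DOX libraries had a median of 3216 bases, and that of the 14 overlapping members a median of 1466 bases. With a smooth trend on transcript length removed from each library, an analysis added after the data were seen, 19 members had both DOX libraries higher, 1 had both lower, and the median log2 difference was 0.47. The shares and median of all tested genes after this correction are not given here, so these values have no background beside them. The labels give no batch or RNA quality.

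**Figure D4:**
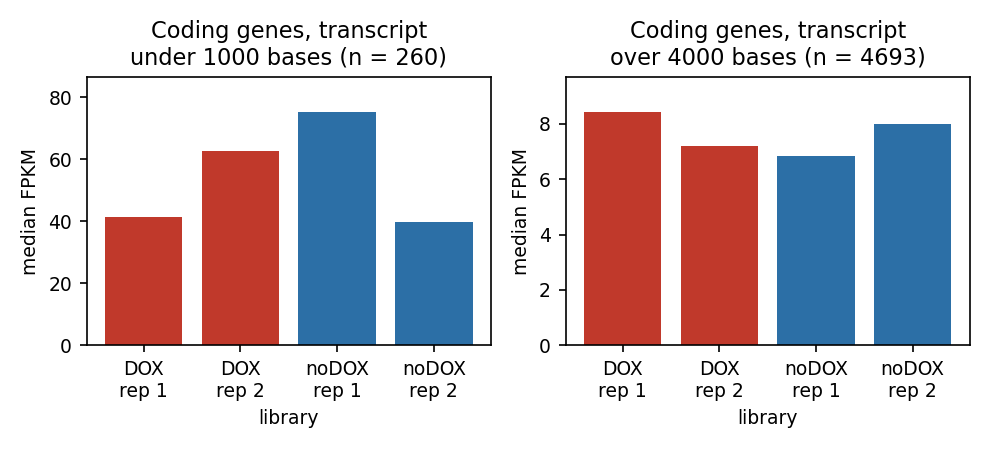
Median FPKM per library of coding genes with short (left, 260 genes) and long (right, 4693 genes) transcripts, with DOX in red and noDOX in blue. Short transcripts are highest in DOX replicate 2 and noDOX replicate 1, at 62.6 and 75.3 FPKM, and long ones in DOX replicate 1, at 8.43 FPKM.

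Summed over the 30 members, FPKM made up 4.92% and 4.37% of the total outside small RNA genes in the DOX libraries, against 3.90% and 3.16% in the noDOX libraries. The groups did not overlap for this share. The members' sum itself overlapped, at 27969 and 33022 FPKM in DOX libraries 1 and 2, against 35071 and 18203 FPKM in noDOX libraries 1 and 2. The totals it was divided by were 568294 and 755157 in the DOX libraries, against 900263 and 575373 in the noDOX libraries. FTL, FTH1, TXN and PRDX1 carry much of that sum, and all 4 had overlapping libraries on the FPKM scale itself.

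To show what lies next to the gene starts, promoter sequences from RefSeq (GRCh38.p14, 250 bases before to 50 after each start) were matched by symbol. This gave 28 starts for 23 of the 30 members, and the sequences are used only as text beside the FPKM, which rest on hg19. The antioxidant response element core TGACNNNGC, searched on both strands, was found at 10 of these 28 starts (35.7%), against 13.3% of all 35116 starts in the table. By gene, it was found in 6 of 14 members whose DOX libraries were higher and in 3 of the other 9. The heptamer TGACTCA, whose reverse complement is TGAGTCA, was found in ME1, OSGIN1 and PIR, or at 10.7% of the members' starts, against 4.95% of all starts, and in ME1 and PIR it overlaps the core. A match is a stretch of letters and not a known site. The members were listed as genes of the NRF2 programme and the pentose phosphate pathway, so these shares describe the list and not the libraries. The first matching core of each of the 6 members with higher DOX libraries is shown in capitals, in its flanks, 5′ to 3′ on the strand of the gene.
CBR1, chr21:36069840-36069898, plus strand: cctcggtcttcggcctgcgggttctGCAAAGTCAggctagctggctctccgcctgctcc
GCLM, chr1:93909431-93909489, minus strand: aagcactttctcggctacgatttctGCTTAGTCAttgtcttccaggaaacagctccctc
GPX2, chr14:64942834-64942892, minus strand: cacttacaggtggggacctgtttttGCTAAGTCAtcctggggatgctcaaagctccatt
IDH1, chr2:208255181-208255239, minus strand: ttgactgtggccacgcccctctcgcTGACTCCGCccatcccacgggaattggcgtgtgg
ME1, chr6:83431155-83431213, minus strand: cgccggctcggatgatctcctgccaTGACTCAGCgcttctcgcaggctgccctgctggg
TXNRD1, chr12:104215655-104215713, plus strand: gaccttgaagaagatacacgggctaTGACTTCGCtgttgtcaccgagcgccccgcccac
The cores of CBR1, GCLM and GPX2 read in reverse, from GC to GTCA, and lie 159, 34 and 122 bases before the start. Those of IDH1, ME1 and TXNRD1 read forward and lie 143, 137 and 99 bases before a start. ME1 and TXNRD1 hold further matches at the same start. EPHX1, PGD and PIR, whose libraries overlapped, hold a core too, and 1 of them is shown for comparison.
PGD, chr1:10398838-10398896, plus strand: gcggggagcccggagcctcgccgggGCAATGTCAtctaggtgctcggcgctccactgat

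The genes that control NRF2 gave 8 with higher and 2 with lower DOX libraries among 19 tested, where 14.7% of all tested genes were higher and 17.3% lower in this way. In the limma fit 0 passed, with 2 at an unadjusted p under 0.05, against 6.34% of all tested genes. KEAP1, the substrate adaptor that captures NRF2, was at 45.6 and 55.3 FPKM in DOX libraries 1 and 2, against 39.7 and 24.8 FPKM in noDOX libraries 1 and 2 (log2 difference 0.66, SE 0.32; limma, adjusted p = 0.916). It was 0.99 without noDOX library 1 and 0.33 without noDOX library 2. MAFK, another small MAF partner, was at 12.4 and 23.3 FPKM in DOX libraries 1 and 2, against 46.4 and 82.3 FPKM in noDOX libraries 1 and 2. This was the largest difference of the group and went down, -1.80 on the log2 scale (SE 0.44; limma, adjusted p = 0.566). MAFF, the remaining small MAF gene, was at 17.0 and 15.0 FPKM with doxycycline, against 10.7 and 10.7 FPKM without it. The 3 small MAF genes thus had MAFG and MAFF higher and MAFK lower in both DOX libraries. EP300, a histone acetyltransferase that serves as a coactivator, was at 13.1 and 9.47 FPKM with doxycycline, against 7.94 and 8.67 FPKM without it. Its log2 difference was 0.39, or 0.17 without DOX library 1. BACH1, a repressor that competes for the same DNA elements, averaged 4.37 ± 0.936 FPKM in DOX and 4.20 ± 1.11 FPKM in noDOX libraries (SD, n = 2 each). SQSTM1, which binds KEAP1 as the autophagy receptor p62, averaged 268 ± 93.0 FPKM in DOX and 249 ± 85.4 FPKM in noDOX libraries (SD, n = 2 each). Both overlapped.

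The rest of the pentose phosphate pathway showed 1 gene with higher and 2 with lower DOX libraries among 10 tested, near the 14.7% and 17.3% of all tested genes, with a median log2 difference of -0.05. By limma 0 were called and 0 had an unadjusted p under 0.05. PGLS, a lactonase of the oxidative branch, was at 50.9 and 55.0 FPKM with doxycycline, against 52.7 and 35.8 FPKM without it, with overlapping libraries. RPIA, the ribose phosphate isomerase, was at 8.28 and 8.91 FPKM with doxycycline, against 10.1 and 13.4 FPKM without it. PRPS2, which makes phosphoribosyl pyrophosphate from ribose phosphate, was at 19.2 and 19.1 FPKM with doxycycline, against 23.0 and 31.7 FPKM without it. SHPK, sedoheptulokinase, was at 11.0 and 10.9 FPKM with doxycycline, against 9.18 and 8.95 FPKM without it. RPIA and PRPS2 were lower and SHPK higher in both DOX libraries, with log2 differences of -0.40, -0.48 and 0.25. Without noDOX library 2 RPIA was at -0.21 and PRPS2 at -0.25. Among 14 tested genes of other NADPH and one-carbon enzymes, 2 were higher and 3 lower without overlap, again near the 14.7% and 17.3% of all tested genes, with a median of -0.11 (limma, 0 called, 1 with an unadjusted p under 0.05). PSPH, the last enzyme of serine synthesis, was at 21.0 and 20.7 FPKM with doxycycline, against 15.3 and 11.4 FPKM without it. MTHFD1L, a mitochondrial folate enzyme, averaged 13.2 ± 3.70 FPKM in DOX and 20.2 ± 1.52 FPKM in noDOX libraries. SHMT2, the mitochondrial serine hydroxymethyltransferase, averaged 53.3 ± 16.2 FPKM in DOX and 70.9 ± 6.81 FPKM in noDOX libraries. ME3, a mitochondrial malic enzyme, averaged 4.22 ± 1.02 FPKM in DOX and 5.56 ± 0.0273 FPKM in noDOX libraries. All 3 were lower in both DOX libraries, with log2 differences of -0.60 for MTHFD1L, -0.44 for SHMT2 and -0.34 for ME3. Without DOX library 1 these came to -0.33, -0.13 and -0.14.

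Other glutathione genes gave 5 higher and 2 lower without overlap among 20 tested, against 14.7% and 17.3% of all tested genes (median 0.10). By limma 0 were called and 3 had an unadjusted p under 0.05, against 6.34% of all tested genes. MGST3, a microsomal glutathione transferase, was at 287 and 284 FPKM in DOX libraries 1 and 2, against 132 and 64.9 FPKM in noDOX libraries 1 and 2 (log2 difference 1.61, SE 0.44; limma, adjusted p = 0.605). GLRX, glutaredoxin, which reduces mixed disulphides of glutathione, was at 127 and 182 FPKM in DOX libraries 1 and 2, against 319 and 324 FPKM in noDOX libraries 1 and 2 (log2 difference -1.07, SE 0.34; limma, adjusted p = 0.681). These 2 went opposite ways. GSTA1, an alpha class transferase with close copies, was at 9.70 and 3.31 FPKM with doxycycline, against 1.88 and 0.804 FPKM without it. Its log2 difference was 1.58, or 0.92 without DOX library 1. SLC7A11, the cystine importer and an NRF2 target, was at 17.6 and 18.7 FPKM with doxycycline, against 16.7 and 15.5 FPKM without it, higher by little in both. Of 13 tested genes of the remaining thioredoxin and superoxide defence, 2 were higher and 1 lower without overlap, near the 14.7% higher and below the 17.3% lower of all tested genes, with a median of -0.08 (limma, 0 called, 1 with an unadjusted p under 0.05). SOD2, the mitochondrial superoxide dismutase, was lower, at 40.6 and 43.6 FPKM with doxycycline, against 61.6 and 92.9 FPKM without it. Its log2 difference was -0.83, or -0.54 without noDOX library 2. CAT, catalase, was at 39.4 and 28.7 FPKM with doxycycline, against 26.4 and 27.4 FPKM without it. Both CAT libraries with doxycycline lay above those without it, with a log2 difference of 0.31, or 0.09 without DOX library 1. SESN3, a sestrin, averaged 1.81 ± 0.572 FPKM in DOX and 0.867 ± 0.116 FPKM in noDOX libraries. Its log2 difference was 0.58, or 0.37 without DOX library 1. PRDX4, an endoplasmic reticulum peroxiredoxin, averaged 119 ± 48.3 FPKM in DOX and 163 ± 54.4 FPKM in noDOX libraries with overlapping libraries.

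Other detoxification genes had 11 higher and 4 lower without overlap among 25 tested, against 14.7% and 17.3% of all tested genes, with a median of 0.21. By limma 0 were called and 6 had an unadjusted p under 0.05, against 6.34% of all tested genes. ABCC5, an export pump of cyclic nucleotides, was at 15.6 and 13.9 FPKM in DOX libraries 1 and 2, against 8.53 and 8.45 FPKM in noDOX libraries 1 and 2 (log2 difference 0.73, SE 0.18; limma, adjusted p = 0.566). The replicates of ABCC5 agreed closely in both groups. AKR1C1, an aldo-keto reductase with near-identical paralogues, was at 306 and 419 FPKM with doxycycline, against 166 and 84.2 FPKM without it. Its paralogues AKR1C2 and AKR1C3 had overlapping libraries, with log2 differences of -0.23 and -0.08, and reads can be shared among them. CYP2S1, a cytochrome P450, averaged 335 ± 109 FPKM in DOX and 112 ± 38.1 FPKM in noDOX libraries. CYP4F11, another, averaged 85.0 ± 18.8 FPKM in DOX and 44.2 ± 0.403 FPKM in noDOX libraries. ABCC5, AKR1C1, CYP2S1 and CYP4F11 all had both DOX libraries above both noDOX libraries. The 4 genes of the list with both DOX libraries lower, picked out after their values were seen, were ALDH3A1, UGT1A6, EPHX2 and ABCC4. ALDH3A1, an aldehyde dehydrogenase, was at 906 and 1557 FPKM in DOX libraries 1 and 2, against 2407 and 2060.1 FPKM in noDOX libraries 1 and 2 (log2 difference -0.91, SE 0.50; limma, adjusted p = 0.968). The log2 differences of UGT1A6, EPHX2 and ABCC4 were -0.77, -0.25 and -0.26.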

How the data were processed

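The authors deposited 1 table of FPKM, with 1 column per library and 23143 gene symbols. Per the submitters' processing notes, TopHat2 2.0.10, Bowtie, Cufflinks 2.2.1 and Cuffdiff were used on hg19. The sources used here do not give the annotation, the strand setting or how libraries were scaled. The labels' protocols give column-purified total RNA, DNase I treatment and oligo(dT) enrichment.

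FPKM were transformed as log2(FPKM + 1), which understates the change of low genes. The 12504 genes averaging at least 1 FPKM were fitted by limma 3.58.1 (R 4.3.3) with a mean for each group, a mean-variance trend, two-sided p-values and Benjamini-Hochberg adjustment at 0.05 over all of them. There were 2 residual degrees of freedom. Values after ± are SDs of 2 libraries. The fit was tested on simulated data. Small RNA genes held 34.8 to 41.9% of each FPKM sum. The members and lists were chosen with earlier results of these data known, so lists are given as counts and medians. Values per library are given for NFE2L2, MAFG, members without overlap and those with a defining role. In each other list, values per library or group means are given for up to 4 genes with the smallest p. KEAP1, SLC7A11, SQSTM1 and BACH1 are given in the same way. TRIM16L, AKR1C2 and AKR1C3 were added after their values were seen. Some genes that this rule would name are not reported here. Transcript lengths and exon overlaps came from GENCODE release 29, matched by symbol, with a length for 88.8% of tested genes. Alternatives changed the pseudocount, filter, scaling, moderation, replicate block and libraries used.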

Additional observations from a re-analysis of the deposited data

How the results depend on the processing

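No member passed the threshold under the alternatives that kept all 4 libraries. Over all 16 alternatives, 447 of 480 member values kept their direction. Changing the filter, the genes tested, the moderation or the replicate block leaves each log2 difference as it was. Values under those settings could not change direction, so part of the 447 was fixed in advance. Signs that changed belonged to 14 members and to BACH1 and SQSTM1 among the other genes that the rule named. The 14 members are those with overlapping libraries, at -0.45 to 0.44 on the log2 scale. Leaving out a library cannot change the sign where libraries do not overlap, so for those fits this follows from the definition. With each library scaled to an equal sum without small RNA genes, the log2 differences of ABCC3, EPHX1, FTH1, NQO1, PGD and PIR were 0.019, 0.090, 0.056, 0.057, 0.034 and 0.10, and the median of all tested genes was 0.07, against -0.04. With the length trend removed, added after the data were seen, EPHX1, FTH1, PGD and PIR were at 0.085, 0.10, 0.020 and 0.12. The cause was not tested.

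When each library was left out in turn, the log2 differences that changed sign ran from -0.14 to 0.62 for ABCC1, -0.46 to 0.23 for ABCC3, -0.17 to 0.27 for BACH1, -0.13 to 0.79 for BLVRB, -0.47 to 0.69 for CBR3, -0.27 to 0.18 for EPHX1, -0.68 to 0.53 for FTH1, -0.20 to 0.90 for FTL, -1.21 to 0.30 for HMOX1, -0.41 to 0.25 for NQO1, -0.35 to 0.15 for PGD, -0.39 to 0.32 for PIR, -0.34 to 0.54 for PRDX1, -0.25 to 0.47 for SQSTM1, -0.028 to 0.58 for TALDO1 and -0.23 to 1.11 for TXN.

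Members without overlap and higher with doxycycline numbered 15 to 20 in the fits with all 4 libraries, and those lower 1. When 1 library was left out they numbered 16 to 24 and 2 to 6. Fewer libraries separate more easily, so these counts cannot be set against those with all 4. The shares of all tested genes under the alternatives are not given here. The median of the members ran from 0.16 to 0.58 when 1 library was left out. The medians of all tested genes in those fits are not given here. Over all tested genes, 3 were called higher and 8 lower. Higher calls numbered 5 with a pseudocount of 0.1, 0 without a filter, 1 with equal sums, 1 without small RNA genes and 6 with robust moderation, and lower calls 5 with a pseudocount of 5, 1 without a filter, 2 with equal sums and 0 without small RNA genes. Leaving out 1 library gave 4 to 31 higher and 19 to 59 lower calls. The replicate block gave 30 higher and 35 lower calls over all genes and 0 among the members. Same-numbered libraries deviated in opposite directions (correlation -0.352 over 12504 genes), and the numbers are not stated to pair the samples. A block with crossed numbers, added after the data were seen, gave 2 higher and 5 lower calls and 0 among the members. The depth is unknown, so its limits could not be given.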
